A study of Mus musculus with 4 samples.

Results

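Slpi encodes secretory leukocyte protease inhibitor, a small secreted WAP-domain protein that blocks neutrophil elastase and other serine proteases. Epidermal cells with high Slpi were examined 1 day after deletion of ΔNp63, in a single-cell RNA sequencing study that asks how this isoform of p63 governs stem cells and inflammation in adult mouse epidermis. The cells were chosen by measured values in the 1-day ablated library. A cell barcode needed at least 1500 gene UMIs (unique molecular identifiers, each marking 1 captured RNA molecule), at most 15% mitochondrial UMIs, and Slpi at 5 or more UMIs and 10 or more per 10000. It also needed Krt8 below 10 per 10000, the sum of Flg and Flg2 below 10 per 10000, and no UMI of Ptprc, the pan-leukocyte gene for CD45. This gave 1264 Slpi-high barcodes of 30687 that passed the UMI and mitochondrial limits, 32212 listed in the library and 109216 listed in the series. The comparison group, called Slpi-low keratinocytes, was 18943 barcodes of the same library with no Ptprc UMI, Krt5 plus Krt14 at 5 or more UMIs and Slpi below 2 per 10000.

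The study holds 4 libraries, 1 per group, from back-skin epidermis. Control mice were DNp63fl/fl, and ablated mice were DNp63fl/fl;K14-CreT2, in which a tamoxifen-dependent Cre is driven by the keratin 14 promoter of basal keratinocytes. All mice, controls included, were given tamoxifen by gavage at 200 mg/kg on 5 days, were 2 to 17 months old, and were of both sexes. Skin was digested in 0.25% trypsin, either at 4 °C overnight or at 37 °C for 2 hours, and the labels do not say which digestion, ages or number of mice went into which library. Chemistry differed with time: a 3′ kit (10x Genomics, version 3.1) was used at 1 day, and a 5′ kit (version 1.1) at 1 week. With 1 library per group there is no replicate check and no test. Intervals below are exact 95% intervals that cover counting error only, and "higher" or "lower" compares sums of UMIs.

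Keratinocytes leave the basal layer, stop dividing, switch from keratins 5 and 14 to keratins 1 and 10, and finally cross-link small proline-rich proteins, loricrin and other precursors into the cornified envelope. Injured or stressed epidermis adds keratins 6, 16 and 17, small proline-rich proteins, alarmins and protease inhibitors, Slpi among them. ΔNp63 is the main p63 isoform of basal keratinocytes.

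The Slpi-high barcodes were rare in controls and made up 4.12% of passing barcodes in the 1-day ablated library (95% Clopper-Pearson interval 3.90 to 4.35). The same rule chose 5 of 27727 passing barcodes in the 1-day control (0.0180%, 0.00586 to 0.0421), 4 of 11466 in the 1-week control (0.0349%, 0.00951 to 0.0893) and 151 of 10623 in the 1-week ablated library (1.42%, 1.21 to 1.67). The rule asks for 5 Slpi UMIs, which shallow barcodes rarely reach. Without that minimum the ablated shares were 4.79% at 1 day and 4.41% at 1 week, against 0.0216% and 0.0436% in the controls. Among barcodes with 5000 or more UMIs, where the minimum has no effect, the rule chose 693 of 8824 at 1 day (7.85%, 7.30 to 8.43) and 78 of 2840 at 1 week (2.75%, 2.18 to 3.42). The 1-day share was the higher in each of these counts, but the gap between the times changed with how depth was treated, and both ablated libraries lay far above their own controls. Median depth over listed barcodes was 3488 UMIs at 1 day and 1617 at 1 week.

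**Figure D1:**
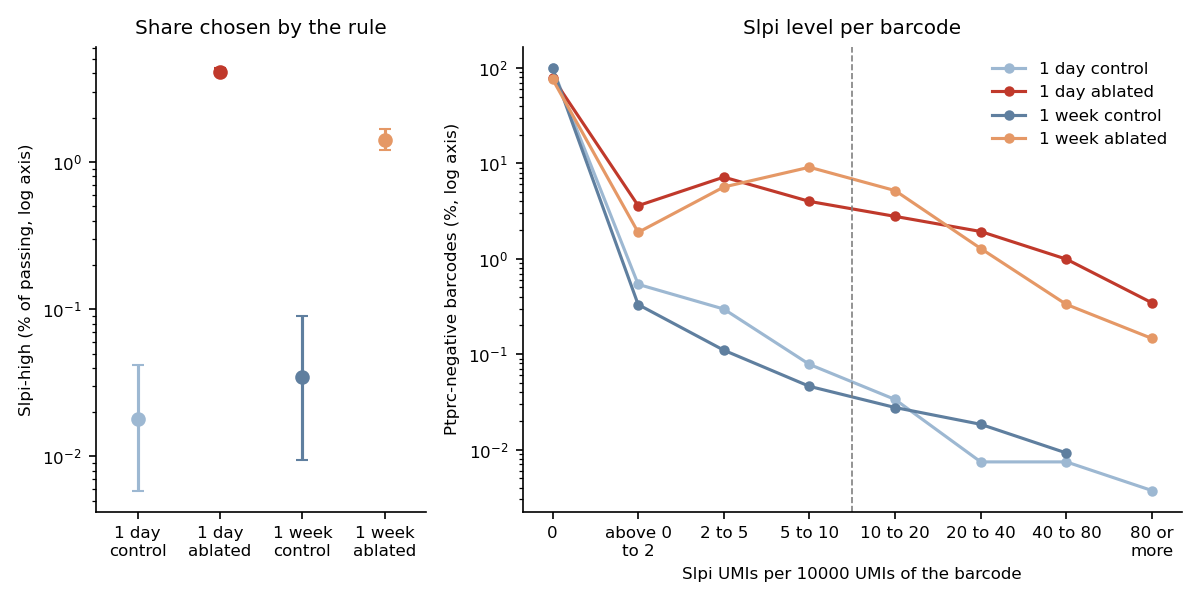
Left, the share of passing barcodes chosen by the Slpi-high rule in each library (log axis, exact 95% intervals). Right, the percentage of Ptprc-negative passing barcodes in each range of Slpi UMIs per 10000 (log axis), with the dashed line at the limit of 10. Both ablated libraries lie above both controls in all ranges above 0.

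Slpi in the chosen barcodes had a median of 25.2 UMIs per 10000, quartiles of 16.6 and 41.5, and a range of 10.0 to 348. These barcodes held 61.2% of all Slpi UMIs of the passing 1-day ablated barcodes, while 79.2% of passing barcodes had no Slpi UMI. Of 1569 barcodes with Slpi at the limit before the other limits, 148 were lost to Krt8, 134 to Flg and 30 to Ptprc, so Slpi was not restricted to the chosen barcodes. Among Krt8-high barcodes, a group marked by this simple epithelial keratin, 131 of 4350 (3.01%) reached the Slpi limit, and among Flg-high barcodes, marked by filaggrin of the granular layer, 123 of 1373 (8.96%) did.

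Just inside the limit of 10 per 10000, 103 barcodes with Slpi below 12 held Sprr2d at 297 CPM (UMIs per 1000000 UMIs of the group) and Krt6b at 217 CPM. Just outside it, 101 barcodes with Slpi from 8 held Sprr2d at 402 CPM and Krt6b at 833 CPM, both above the level inside. Other genes were lower just outside than just inside, such as Ereg at 110 CPM against 303 CPM, Areg at 450 CPM against 614 CPM and Neu2 at 27.3 CPM against 35.3 CPM. The 1907 Krt8-low and Flg-low keratinocytes with Slpi from 2 to below 10 had Sprr2d at 206 CPM, between 79.5 CPM in Slpi-low keratinocytes and 568 CPM in Slpi-high barcodes.

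Depth and RNA quality were compared first. Slpi-high barcodes held 8500225 UMIs with a median of 5350.5 per barcode, and Slpi-low keratinocytes 88291105 with a median of 3606. The median mitochondrial share was 4.05% and 4.02%. At 1 day, 299 barcode sequences were shared between the control and ablated libraries, and 8 Slpi-high barcodes were also listed in the control. Trp63, the gene of the deleted isoform, was at 59.5 CPM (54.5 to 64.9) in Slpi-high barcodes, 133 CPM (131 to 135) in Slpi-low keratinocytes and 428 CPM in Slpi-low keratinocytes of the 1-day control. Trp63 is counted per gene and the 3′ reads may lie outside the deleted part, so these levels do not show which barcodes lost the isoform.

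Markers of other cell types were low. The 8 T cell markers summed to 23.5 CPM, against 39.6 CPM in Slpi-low keratinocytes and 1748 CPM in the 185 barcodes with 2 or more Ptprc UMIs, called Ptprc-positive here. Ptprc is one of these 8 and was set by the rule, at 0 in both keratinocyte groups. Of the others Trbc2 was the highest in Slpi-high barcodes, at 10.8 CPM. The 7 macrophage markers summed to 6.47 CPM and 6.37 CPM. Among neutrophil markers Csf3r, Retnlg and Ly6g had no UMI, and the sum of all 6 was 51.6 CPM against 22.6 CPM, nearly all of it S100a8 and S100a9, which keratinocytes also make, and Cxcr2 at 9.53 CPM. Among Merkel cell markers Atoh1, Krt20, Isl1 and Chga had no UMI. The 8 Langerhans cell markers summed to 2573 CPM and 2249 CPM, of which 2117 CPM and 1659 CPM were Epcam, against a sum of 14591 CPM in Ptprc-positive barcodes. Melanocyte, fibroblast, endothelial and smooth muscle markers each summed to less than 7 CPM. After thinning each barcode to 1500 UMIs, Cd3g was found in 0.554% of Slpi-high and 0.544% of Slpi-low barcodes and in 35.7% of Ptprc-positive barcodes, and Slpi in 95.3%, 0.755% and 8.11% of them.

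Of the 3 marker genes given for these cells, Slpi chose them and Krt6b was high but uneven. Mmp10 was less than 2-fold higher, by an amount that changed with the limits on the comparison group. Krt6b, a keratin of wounded and stressed epidermis, was at 646 CPM (629 to 663) in Slpi-high barcodes, 117 CPM (114 to 119) in Slpi-low keratinocytes and 10.7 CPM in control Slpi-low keratinocytes. It had a UMI in 316 of 1264 Slpi-high barcodes, and 64 barcodes, 5% of them, held 73.2% of its UMIs. Thinned to 1500 UMIs, Krt6b was found in 15.9% of Slpi-high barcodes, 4.76% of Slpi-low keratinocytes and 4.86% of Ptprc-positive barcodes. The Slpi-low share was thus at the Ptprc-positive level. Mmp10, stromelysin 2 of migrating wound-edge keratinocytes, stood at 36.6 CPM (32.6 to 40.9) in Slpi-high barcodes and 31.0 CPM (29.8 to 32.1) in Slpi-low keratinocytes. The log2 ratio of 0.24 was small. After thinning to 1500 UMIs Mmp10 was found in 3.96% of Slpi-high barcodes, 3.32% of Slpi-low keratinocytes and 2.70% of Ptprc-positive barcodes. In control Slpi-low keratinocytes the share was 1.07%, so both ablated keratinocyte groups lay above the control. Krt8-high barcodes had more Mmp10, at 62.4 CPM, and no Mmp10 UMI was found in the 1-week Slpi-high barcodes. Between Slpi-high and Slpi-low barcodes of the 1-day ablated library Mmp10 did not pass 2-fold. The population is therefore named here by its rule and not by Mmp10.

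Of the gene lists, small proline-rich genes had the highest median log2 ratio of Slpi-high over Slpi-low barcodes (2.50). WAP-domain inhibitors (1.27 over 5 genes, turning negative in 2 alternatives), suprabasal genes (0.86) and cornified envelope and barrier genes (0.81) followed. Bulge (-1.79), cell cycle (-1.65) and basal genes (-1.53) had the lowest. The WAP-domain median includes Wfdc12 and Wfdc18, which were measured only through their level in Slpi-high barcodes. Because Slpi chose the barcodes, all values of this contrast describe them and test nothing. The rule is not even on both sides: the comparison group carries no Krt8 or Flg limit, and the Slpi-high group no minimum of Krt5 and Krt14. Over 6703 genes with a mean of at least 10 CPM over both groups, leaving out the rule's genes and mitochondrial genes, 148 (2.21%) were at least 2-fold higher and 400 (5.97%) at least 2-fold lower, a limit of size and not of significance. A gene below 10 CPM in 1 group could reach the mean of 10 CPM through the other group. The median log2 ratio over all 6703 genes was -0.15. With TMM scaling, which centres most genes, that median became 0.093 and the split 246 higher and 225 lower.

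Among small proline-rich genes, precursors that transglutaminases cross-link into the cornified envelope, 8 of 16 were measured, 6 were at least 2-fold higher and none lower, with a median log2 ratio of 2.50 beside -0.15 over all genes. Sprr2d was at 568 CPM (552 to 585) in Slpi-high barcodes, 79.5 CPM (77.6 to 81.4) in Slpi-low keratinocytes and 3.99 CPM in control Slpi-low keratinocytes, a log2 ratio within the ablated library of 2.84 (2.78 to 2.89). Sprr2i was at 117 CPM against 14.8 CPM and Sprr2e at 146 CPM against 19.2 CPM. Sprr2f was at 393 CPM against 55.8 CPM and Sprr2h at 722 CPM against 158 CPM. Sprr1a, a member of another subfamily, was at 13958 CPM against 6815 CPM. All 5 Sprr2 genes were lower in control Slpi-low keratinocytes than in either ablated group, from 0.559 CPM for Sprr2e to 42.1 CPM for Sprr2h. Sprr2 genes are close copies of each other, so the split of reads among them is uncertain.

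Spread over barcodes differed among these genes. Sprr2h had a UMI in 981 of the 1264 barcodes (77.6%), with a median of 4.73 per 10000, and Sprr2d in 651 (51.5%). Sprr2i was found in 199 barcodes (15.7%), and 64 of them held 75.2% of its UMIs. Thinned to 1500 UMIs, Sprr2d was found in 35.2% of Slpi-high barcodes, 6.52% of Slpi-low keratinocytes, 6.49% of Ptprc-positive barcodes and 0.250% of control Slpi-low keratinocytes. The Slpi-low share was thus at the level of the Ptprc-positive barcodes, where keratinocyte genes can come from free RNA, and the Slpi-high share was well above it.

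The Sprr2 promoters are shown because these genes stood together at the top of the contrast. AP-1, the dimers of Fos and Jun proteins that drive many epidermal differentiation genes, binds the motif TGANTCA, a palindrome that reads the same on both strands. RefSeq promoters (GRCm38.p6, 250 bases before to 50 bases after each start) were searched on both strands, and 120 of the 148 higher genes had one. The first 150 bases of the window are printed for 5 Sprr2 genes, and the last 150 bases before the start for Glrx and Sdcbp2, with the motif in capitals.
Sprr2d (chr3:92338890-92339039, plus strand): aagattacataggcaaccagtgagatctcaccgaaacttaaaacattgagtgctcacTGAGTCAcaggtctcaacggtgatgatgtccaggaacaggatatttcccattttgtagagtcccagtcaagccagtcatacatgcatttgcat
Sprr2e (chr3:92351893-92352042, plus strand): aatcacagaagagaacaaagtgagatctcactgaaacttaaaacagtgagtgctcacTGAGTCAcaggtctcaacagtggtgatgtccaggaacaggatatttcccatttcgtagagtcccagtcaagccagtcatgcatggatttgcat
Sprr2i (chr3:92407741-92407890, plus strand): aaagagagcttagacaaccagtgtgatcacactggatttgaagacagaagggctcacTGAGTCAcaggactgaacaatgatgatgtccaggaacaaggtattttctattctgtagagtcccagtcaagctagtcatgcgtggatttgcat
Sprr2f (chr3:92364937-92365086, plus strand): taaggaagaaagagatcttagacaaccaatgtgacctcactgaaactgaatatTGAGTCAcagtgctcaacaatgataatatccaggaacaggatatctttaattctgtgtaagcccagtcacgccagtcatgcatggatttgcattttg
Sprr2h (chr3:92385435-92385584, plus strand): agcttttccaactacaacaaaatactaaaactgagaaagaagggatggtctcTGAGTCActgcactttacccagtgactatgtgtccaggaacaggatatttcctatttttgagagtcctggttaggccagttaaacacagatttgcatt
Glrx (chr13:75839735-75839884, plus strand): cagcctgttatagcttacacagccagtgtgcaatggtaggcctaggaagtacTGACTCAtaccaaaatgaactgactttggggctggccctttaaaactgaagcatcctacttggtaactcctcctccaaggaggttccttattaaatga
Sdcbp2 (chr2:151572473-151572622, plus strand): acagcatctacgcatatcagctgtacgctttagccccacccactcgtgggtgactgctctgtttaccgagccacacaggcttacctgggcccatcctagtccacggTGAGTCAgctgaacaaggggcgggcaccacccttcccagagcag

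All 5 Sprr2 promoters held the motif, at -193 in Sprr2d, Sprr2e and Sprr2i, at -197 in Sprr2f and at -198 in Sprr2h, counting the transcription start as 0. The match lay at -98 in Glrx and at -44 in Sdcbp2. No such letters were in the Slpi promoter window. Among the matched higher genes 25 of 120 (20.8%) had at least 1 promoter with the motif, as did 28 of 313 lower genes (8.95%) and 6.80% of the 5385 matched measured genes. Over all 32851 promoters in the table the share was 7.81%. Some Sprr2 promoters are near copies: compared base by base without gaps or shifts, Sprr2d and Sprr2e were identical at 264 of 300 positions. Sprr2f and Sprr2h were at 93, the fewest of the 10 pairs. Copies shifted by a base lose their matches in such a count, so a low count does not show unlike promoters. The motif in these genes is therefore not counted as independent. Without the Sprr2 genes the share was 20 of 115 (17.4%). These 20 include Sprr1a, Sbsn, Krtdap and Prdm1. A Grhl motif, AACCNGTT, was in 2.50% of higher and 2.15% of measured genes, and an antioxidant response motif, TGACNNNGC, in 21.7% and 18.3%. Motifs of NF-κB (3.33% and 2.14%), of Klf factors (30 of 120 and 41.4%) and of paired p63 half-sites (0.833% and 0.371%) were searched as well. These are matches of letters and not sites of binding.

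Of 23 measured cornified envelope and barrier genes, of 29 listed, 9 were at least 2-fold higher and 4 lower, with a median log2 ratio of 0.81. Tgm1, the transglutaminase that cross-links envelope proteins, was at 227 CPM (217 to 237) against 64.0 CPM (62.4 to 65.7), and at 21.2 CPM in control Slpi-low keratinocytes. Asprv1, the protease that processes filaggrin, was at 4882 CPM against 1870 CPM, and Klk7, a desquamation protease, at 5100 CPM against 2293 CPM. Alox12b, a lipoxygenase of the lipid barrier, was at 255 CPM against 84.4 CPM. Cnfn was at 652 CPM against 228 CPM. These genes were also high where Flg was high: in Flg-high barcodes Asprv1 was at 5943 CPM, Klk7 at 4677 CPM and Tgm1 at 206 CPM.

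The 4 lower barrier genes came within 2-fold once the Krt8 and Flg limits held on both sides, with log2 ratios of -0.38 for Lce1m, -0.61 for Lce1a1 and -0.25 for Lce1b and with Lor at 132 CPM in the comparison group, and the Flg limit was not varied alone. Lce1m, a late cornified envelope gene, was at 21.3 CPM in Slpi-high barcodes, 176 CPM in Slpi-low keratinocytes and 6122 CPM in Flg-high barcodes, and Lor, the gene of loricrin, at 146 CPM, 435 CPM and 11554 CPM. With the Krt8 and Flg limits set on both groups, 15 of 21 measured barrier genes were at least 2-fold higher and none lower, with a median of 1.13, and Lce1m in the comparison group was at 27.7 CPM. Lce1 genes are also close copies, so their separate values are uncertain.

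Suprabasal keratinocyte genes were higher as well: 4 of 14 were past 2-fold and none lower, with a median log2 ratio of 0.86. Krt10, the keratin of differentiating layers, was at 8659 CPM (8597 to 8722) against 4586 CPM (4572 to 4600), and Krtdap at 7718 CPM against 3167 CPM. Sbsn was at 11415 CPM against 5396 CPM. Control Slpi-low keratinocytes had Krt10 at 5281 CPM, Krtdap at 3178 CPM and Sbsn at 2828 CPM. Transcription factors of differentiation gave 3 higher and 2 lower of 18 measured, with a median of 0.14. Grhl3, which drives barrier genes, was at 183 CPM against 73.6 CPM, and Prdm1 and Ehf were past 2-fold too.

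Basal keratinocyte genes lay lower: 13 of 16 measured were at least 2-fold lower and none higher, with a median of -1.53. Col17a1, the hemidesmosome collagen, was at 95.8 CPM (89.3 to 103) against 333 CPM (330 to 337) and 872 CPM in control Slpi-low keratinocytes. Itgb4, the hemidesmosome integrin, was at 13.6 CPM, 57.8 CPM and 99.6 CPM in the same order, and Krt15 at 618 CPM, 1450 CPM and 2922 CPM. Bulge and outer root sheath genes gave 7 lower of 8 and a median of -1.79, with Postn at 56.8 CPM against 223 CPM. Cell cycle genes gave 8 lower of 10 and a median of -1.65, with Mki67 at 12.8 CPM against 49.0 CPM and Top2a at 22.1 CPM against 67.8 CPM. Krt5 and Krt14 chose the comparison group, and with their minimum set on both groups 231 genes were at least 2-fold lower instead of 400. Cdkn1a, the p21 inhibitor of cyclin-dependent kinases, was at 1810 CPM against 1063 CPM, while 2 of 11 p53 target and growth arrest genes were lower and none higher.

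**Figure D2:**
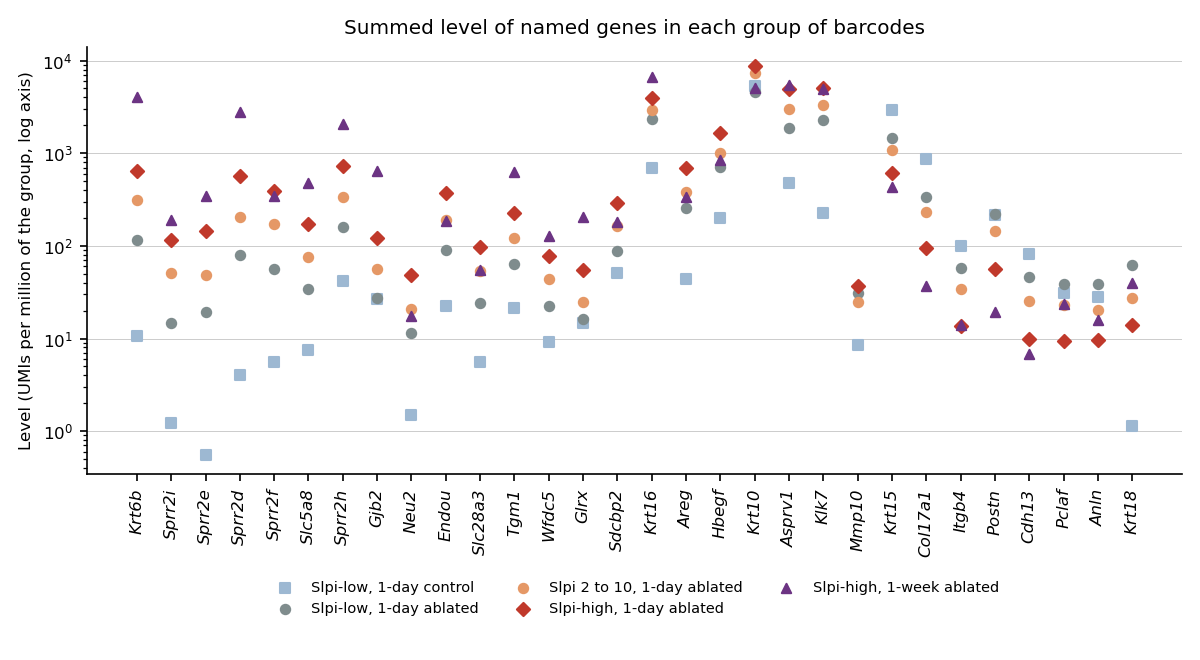
Summed CPM (log axis) of named genes in groups of barcodes (symbols, without error bars): 4 at 1 day and Slpi-high barcodes at 1 week. At 1 day, Sprr2 genes, Krt6b and Slc5a8 climb from control through Slpi-low and intermediate to Slpi-high barcodes, while Krt15, Col17a1 and Itgb4 descend in the same order.

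Keratins of wounded epidermis were all higher in the sums, but only Krt6b passed 2-fold, and the median of the 4 was 0.78. Krt16 was at 3912 CPM (3870 to 3954) against 2343 CPM (2333 to 2353), Krt6a at 1393 CPM against 784 CPM and Krt17 at 2862 CPM against 2052 CPM. In control Slpi-low keratinocytes Krt16 was at 685 CPM, so the ablated Slpi-low keratinocytes already lay above the control. Krt6a and Krt6b are close copies, so reads may be split between them. Within 1 of the 3 hashtags described further on, the log2 ratio of Krt17 was -0.15.

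Other high single genes had varied roles. Slc5a8, a sodium-coupled monocarboxylate transporter, was at 173 CPM (164 to 182) against 34.6 CPM (33.4 to 35.8), and Slc28a3, a nucleoside transporter, at 96.8 CPM against 24.3 CPM. Gjb2, the gap junction protein connexin 26 that is raised in wounded and hyperproliferative epidermis, was at 122 CPM against 27.7 CPM, with 26.5 CPM in control Slpi-low keratinocytes. Neu2, a cytosolic sialidase, was at 47.9 CPM against 11.5 CPM. Glrx, glutaredoxin, was at 54.7 CPM against 16.4 CPM. Endou, an endoribonuclease, was at 375 CPM against 90.4 CPM, and Sdcbp2, syntenin 2, at 293 CPM against 87.8 CPM. Ptprc-positive barcodes of the same library held Gjb2 at 38.8 CPM, Glrx at 43.0 CPM and Neu2 at 21.0 CPM, above the Slpi-low keratinocytes in each case and below the Slpi-high barcodes.

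Protease inhibitors related to Slpi were mixed. Of 5 measured WAP-domain genes, of 11 listed, 3 were higher and 1 lower, with a median of 1.27. That median was not stable: with Krt10 at 50 or more per 10000 in both groups it was -0.68 over 3 measured genes, none past 2-fold, with the Krt8 and Flg limits as well it was 0.63, and within 1 of the 3 hashtags, after scaling, it was -3.18. Wfdc5 was at 78.1 CPM (72.3 to 84.3) against 22.3 CPM (21.3 to 23.3), Wfdc12 at 22.1 CPM against 5.46 CPM and Wfdc18 at 15.8 CPM against 6.56 CPM, while Wfdc3 was at 11.5 CPM against 30.7 CPM. All 188 Wfdc12 UMIs lay in 42 barcodes (3.32%). Wfdc12 and Wfdc18 lay below 10 CPM in Slpi-low keratinocytes and were measured only through the Slpi-high group, so the filter favoured them as higher genes. Clade B serpins and other inhibitors gave 3 higher and none lower of 14, with a median of 0.42. Spink5, the inhibitor of epidermal kallikreins, was at 1796 CPM against 801 CPM, and Serpinb2, an inhibitor of plasminogen activators, at 8411 CPM against 6301 CPM. Among 15 measured matrix proteases and plasminogen activation genes, 1 was higher and 5 lower. Timp1, an inhibitor of metalloproteases, was the higher one, at 17.4 CPM against 3.93 CPM, from 52 barcodes. It too was measured only through its level in Slpi-high barcodes. Mmp3 was at 10.9 CPM against 25.9 CPM.

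Some ligands of the EGF receptor, which drive keratinocyte growth and migration, were among the higher genes: Areg, Hbegf and Ereg passed 2-fold. Epgn, another ligand, was close to even, with a log2 ratio of 0.13. Lrig1, a negative regulator of the receptor, was at least 2-fold lower, and the median of the 10 measured genes was 0.094. Areg, amphiregulin, was at 693 CPM (676 to 711) against 257 CPM (254 to 261) and 44.0 CPM in control Slpi-low keratinocytes, and had a UMI in 69.1% of Slpi-high and 53.5% of Ptprc-positive barcodes. Thinned to 1500 UMIs, these Areg shares were 43.4% (40.7 to 46.2) and 33.5% (26.8 to 40.8), against 19.9% of Slpi-low keratinocytes. The Ptprc-positive share was thus above that of Slpi-low keratinocytes, and its interval met that of the Slpi-high barcodes. Whether Areg in Ptprc-positive barcodes came from free RNA or from those cells was not tested. Hbegf was at 1662 CPM against 706 CPM and 200 CPM. Ereg, epiregulin, was at 199 CPM against 73.3 CPM, and after thinning was found in 14.2% of Slpi-high, 6.34% of Slpi-low and 5.95% of Ptprc-positive barcodes. Egfr itself was at 98.6 CPM against 94.9 CPM.

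Inflammatory genes gave no common direction. Of 11 interleukin 1 family genes only Il1f9, interleukin 36 gamma, passed 2-fold, at 126 CPM (119 to 134) against 43.6 CPM (42.3 to 45.0), and the median was 0.17. Il1rn, the receptor antagonist, was at 424 CPM against 218 CPM. Chemokines and cytokines gave 2 lower and none higher of 9, with a median of -0.52: Cxcl14 was at 219 CPM against 597 CPM, and Ccl2 at 16.2 CPM against 60.3 CPM. Tslp, the alarmin cytokine of damaged epidermis, was at 145 CPM (137 to 153) against 284 CPM (280 to 288), with 17.4 CPM in control Slpi-low keratinocytes and 636 CPM in Krt8-high barcodes. With the Krt8 and Flg limits on both groups the comparison level of Tslp was 174 CPM, and its log2 ratio went from -0.97 to -0.26. Among 6 antimicrobial and alarmin genes S100a8 and S100a9 passed 2-fold, each found in few barcodes, S100a8 in 42. S100a8 reached the mean of 10 CPM only through its level in Slpi-high barcodes. No NF-κB subunit or feedback gene of 11 passed 2-fold in either direction, and of 7 interferon-stimulated genes 3 were lower. Beside these counts stand 2.21% higher and 5.97% lower over all measured genes, so no call among 11 genes is near the share over all genes.

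AP-1 genes themselves were split: of 9 measured, 4 were higher and 5 lower by any amount. None was at least 2-fold higher and 2 were at least 2-fold lower, with a median of -0.32. Jun was at 332 CPM against 685 CPM and Atf3 at 243 CPM against 492 CPM, while Fosl1 was at 638 CPM against 464 CPM and Junb at 709 CPM against 664 CPM. The 17 stress and dissociation genes, which include immediate early and heat shock genes that can be induced during cell isolation, held none past 2-fold, with a median of -0.25. Oxidative stress genes split evenly, 4 higher and 4 lower of 14. Srxn1, sulfiredoxin, was at 317 CPM against 124 CPM and Txnrd1, thioredoxin reductase, at 480 CPM against 237 CPM, while the metallothioneins Mt1 and Mt2 were at 700 CPM and 250 CPM against 1905 CPM and 776 CPM. None of 15 glycolysis genes passed 2-fold. Of 22 measured migration and adhesion genes of wound keratinocytes, 2 were higher (Ptges and Gjb2) and 5 lower. Over all measured genes 2.21% were at least 2-fold higher and 5.97% lower, so small lists with few or no genes past 2-fold are not set apart from them. Retinoid handling genes gave 1 higher and 1 lower of 6. Sebaceous gland genes gave 1 higher and 3 lower of 6, upper hair follicle genes 1 and 3 of 11, and simple epithelial keratins 1 and 1 of 3. The lower one was Krt18, the partner of Krt8, at 14.0 CPM against 62.0 CPM, and with the Krt8 and Flg limits on both groups its log2 ratio went from -2.15 to -0.82.

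**Figure D3:**
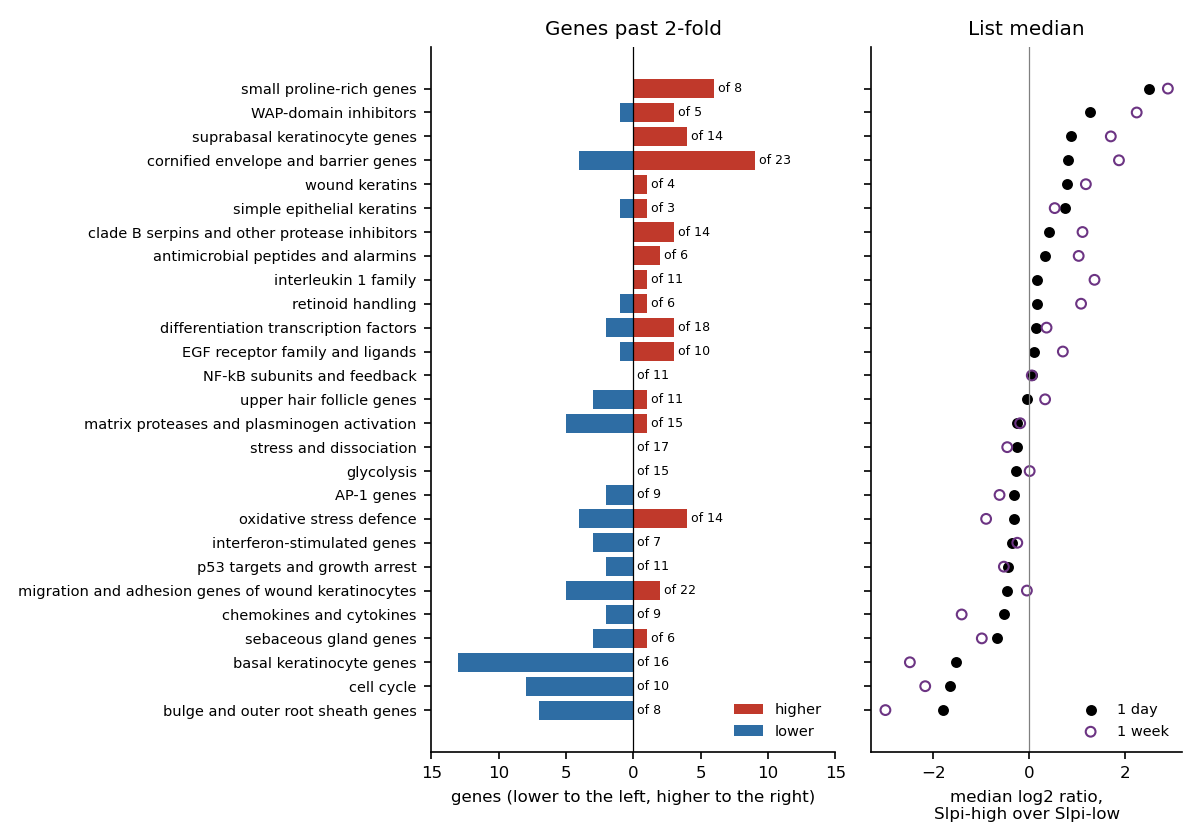
Left, the number of genes of each list at least 2-fold higher (red, to the right) or lower (blue, to the left) in Slpi-high than in Slpi-low barcodes at 1 day, with the number measured. Right, the median log2 ratio of each list at 1 day (filled) and 1 week (open). Small proline-rich genes have the highest median and bulge genes the lowest at both times.

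Much of the contrast was smaller at a like Krt10 level. Both groups were limited to Krt10 of 50 or more per 10000 with the Krt8 and Flg limits, an alternative chosen after seeing the data. This left 930 Slpi-high and 4016 Slpi-low barcodes. The minimum of Krt5 and Krt14 still held for the Slpi-low side only. Krt5 was at 302 CPM in Slpi-high and 634 CPM in Slpi-low barcodes, and Krt14 at 1854 CPM and 3084 CPM, so basal keratins were not matched. Krt10 then was at 10524 CPM and 10693 CPM, and 23 genes were at least 2-fold higher and 60 lower of 6434. The counts were 172 and 462 with the Krt8 and Flg limits on both groups alone, and 148 and 400 in the main comparison. Of the 23, 21 were among the 148. The suprabasal list then had a median of 0.007 with none of 14 past 2-fold, and cornified envelope genes 0.42 with 1 of 21 higher. Small proline-rich genes had a median of 1.73 with 6 of 9 higher, down from 2.45 over the 8 measured with the Krt8 and Flg limits alone. Differentiation transcription factors gave none higher and 1 lower of 17, with Grhl3 at 0.65 and Ehf at 0.56, and no oxidative stress gene of 14 passed 2-fold, with Srxn1 at 0.87, Txnrd1 at 0.76, Mt1 at -0.83 and Mt2 at -0.92.

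In this matched comparison Sprr2f was at 418 CPM against 103 CPM, a log2 ratio of 2.03 (1.95 to 2.11), Sprr2d at 583 CPM against 162 CPM and Sprr2e at 145 CPM against 37.9 CPM. Krt6b was at 432 CPM against 145 CPM, a log2 ratio of 1.57. Slc5a8 was at 189 CPM against 63.8 CPM, Gjb2 at 126 CPM against 43.7 CPM and Areg at 717 CPM against 346 CPM. Areg was the one EGF receptor family gene of 9 past 2-fold, as Hbegf (0.94), Ereg (0.95) and Lrig1 (-0.69) came within it. Hs3st1, a heparan sulfate sulfotransferase, was at 227 CPM against 88.9 CPM. Tgm1 (0.90), Asprv1 (0.62) and Klk7 (0.63) had log2 ratios below 1. Basal genes gave 6 lower and none higher of 15, with a median of -0.79, and Col17a1 was at 82.6 CPM against 179 CPM. The comparison group was still chosen by Krt5 and Krt14, which enters these basal values. Cell cycle genes gave 1 lower of 6, with a median of -0.48, with Mki67 at 6.20 CPM against 15.9 CPM (-1.36) and Top2a within 2-fold at -0.55. Tslp was at 86.3 CPM against 182 CPM, and Irf1, an interferon-regulated transcription factor, at 13.5 CPM against 35.1 CPM. The Sprr2 genes, Krt6b, Slc5a8 and Gjb2 were thus at least 2-fold higher at a matched Krt10 level, and most barrier and suprabasal genes were not. Flg-high barcodes held some of these genes at similar levels: Gjb2 was at 118 CPM there against 122 CPM in all Slpi-high barcodes, Slc5a8 at 145 CPM against 173 CPM and Krt6b at 456 CPM against 646 CPM. Sprr2d was at 233 CPM against 568 CPM and Sprr2f at 118 CPM against 393 CPM, while Sprr2h, at 453 CPM against 722 CPM, stayed within 2-fold.

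The Slpi-high barcodes themselves were not uniform. Krt10 lay below 50 per 10000 in 334 of them (26.4%) and at or above it in 930 (73.6%), at median depths of 4857.5 and 5504 UMIs. The Krt10-low barcodes had more of the wound keratins: Krt6b was at 1320 CPM against 432 CPM in the Krt10-high ones, Krt6a at 1899 CPM against 1232 CPM and Krt17 at 4543 CPM against 2328 CPM, while Krt16 was close to even, at 4101 CPM and 3851 CPM. Some rarer genes differed more. Lcn2, lipocalin 2, had 174 UMIs in the Krt10-low and 23 in the Krt10-high barcodes (84.9 CPM and 3.57 CPM, log2 ratio 4.57, 3.94 to 5.27). S100a8 was at 62.0 CPM against 9.15 CPM, Wfdc12 at 59.5 CPM against 10.2 CPM and Il24, an interleukin 10 family cytokine, at 53.2 CPM against 5.74 CPM. The stefins Stfa3 and Cstdc5, inhibitors of cysteine proteases, were at 291 CPM against 38.3 CPM and 953 CPM against 121 CPM. Tslp was at 330 CPM against 86.3 CPM. Defb6, a beta-defensin, was at 848 CPM against 561 CPM and Il33, an alarmin of the interleukin 1 family, at 125 CPM against 65.4 CPM. Related genes lay the other way: Wfdc21 was at 7.81 CPM against 35.2 CPM, Il1rn at 301 CPM against 464 CPM and Il1f9 at 78.1 CPM against 142 CPM.

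In contrast, Sprr2d was nearly even between them, at 521 CPM and 583 CPM, as was Sprr2e at 149 CPM and 145 CPM. The Krt10-high barcodes had more Asprv1 (5348 CPM against 3413 CPM), Il1f9 (142 CPM against 78.1 CPM) and Hrnr, a filaggrin-like S100 fused-type gene (101 CPM against 32.2 CPM). Krt14 was at 4698 CPM in the Krt10-low and 1854 CPM in the Krt10-high barcodes. Of all Slpi-high barcodes 499 (39.5%) had fewer than 5 UMIs of Krt5 and Krt14 together, and these held Sprr2d at 746 CPM and Krt6b at 207 CPM, against 494 CPM and 829 CPM in the other 765. Because a few barcodes supply most Krt6b, Lcn2 and S100a8 UMIs, these differences rest on small numbers of barcodes: S100a8 had a UMI in 42 of all 1264 and Lcn2 in 55.

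Levels also differed along the Slpi range itself. In barcodes with Slpi at 10 to below 20, 20 to below 40 and 40 or more per 10000 (471, 462 and 331 barcodes), Sprr2e was at 71.1, 147 and 306 CPM and Sprr2d at 363, 591 and 975 CPM. Areg was at 542, 702 and 1006 CPM, Hbegf at 1370, 1684 and 2257 CPM, and Tgm1 at 179, 236 and 314 CPM. Cnfn was at 498, 671 and 951 CPM. These genes were highest where Slpi was highest. Krt10 was at 8803, 8508 and 8598 CPM, and Fosl1 at 626, 665 and 619 CPM, with the top and bottom ranges differing by log2 ratios of -0.034 and -0.015. Cst6, cystatin M/E, was at 2519, 2152 and 733 CPM, Krt79, a keratin of the upper hair follicle, at 557, 415 and 221 CPM, and Tslp at 183, 143 and 66.2 CPM, so these were lowest where Slpi was highest. Cst6 is uneven: 1 barcode held 1859 of its 17181 UMIs and 64 barcodes held 70.3%. Median depth differed across the ranges, at 6336, 5052.5 and 4560 UMIs, and the part of depth in these differences was not tested.

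**Figure D4:**
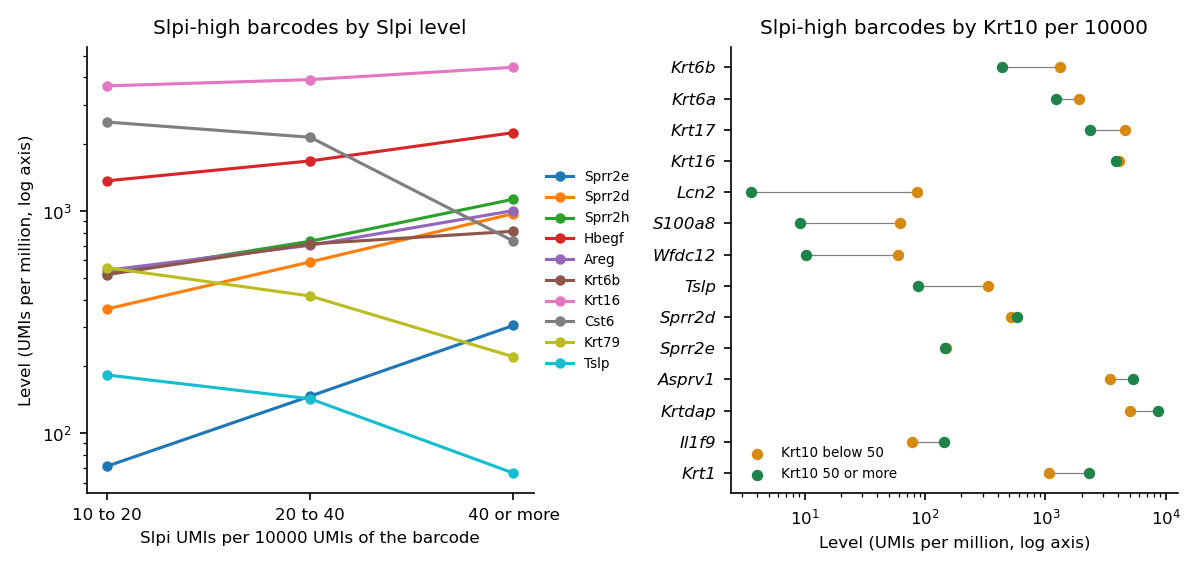
Left, summed levels of 10 genes (CPM, log axis) in 3 ranges of Slpi within the Slpi-high barcodes. Right, levels of 14 genes in Slpi-high barcodes with Krt10 below 50 and at 50 or more per 10000 (log axis). Sprr2e climbs from 71.1 to 306 CPM across the Slpi ranges, and Lcn2 is at 84.9 CPM in the Krt10-low and 3.57 CPM in the Krt10-high barcodes.

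The 1-day libraries also carry counts of antibody hashtags, of which hashtags 1, 2 and 3 were in use and hashtag 4 had a median of 0. The labels do not say what the hashtags mark. Their counts differed, so each was divided by its median over the passing barcodes of the library, and a barcode was given to its top hashtag if that was at least 2 times the next, with a minimum of 10 UMIs, a scaling chosen after seeing the data. Hashtag 1 then took 320 of 569 Slpi-high barcodes (56.2%, 52.1 to 60.4), against 2183 of 6534 Slpi-low keratinocytes (33.4%, 32.3 to 34.6), 32.7% of Krt8-high and 31.0% of Flg-high barcodes. With the counts as deposited, hashtag 1 took 24.6% of Slpi-high barcodes, 537 of 7674 Slpi-low keratinocytes (6.44% to 7.59%) and 24.5% of passing control barcodes. Hashtag 2 took 69.9% of Slpi-high barcodes and 87.1% of Slpi-low keratinocytes. As a share of the passing barcodes of each hashtag, Slpi-high barcodes were 8.23% (7.39 to 9.14) in hashtag 1, 4.25% (3.62 to 4.95) in hashtag 2 and 2.68% (2.17 to 3.28) in hashtag 3. With the counts as deposited they were 11.7%, 3.35% and 3.57%. Under both assignments, hashtag 1 had the highest share.

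Several of the largest differences kept their direction within each hashtag. With scaled counts, the log2 ratio of Sprr2d was 2.32, 3.02 and 3.36 in hashtags 1, 2 and 3, that of Krt6b 2.60, 2.53 and 2.62, that of Gjb2 2.10, 2.02 and 2.50, and that of Col17a1 -1.67, -1.91 and -2.35. That of Mmp10 was 0.42, -0.059 and 0.28. The hashtags were not used as replicates, because the labels give no key to them and Slpi chose the barcodes in each.

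The 1-week ablated library is a separate library (18 barcode sequences are also listed in the 1-day ablated one) and did not enter the choice of the 1-day barcodes, although the same rule chose its 151 Slpi-high barcodes. It was made with another kit, and depth was uneven: the 151 barcodes ranged from 1501 to 63575 UMIs, with 1768051 in all, against 7254 Slpi-low keratinocytes. Over 7804 measured genes 495 (6.34%) were at least 2-fold higher and 1177 (15.1%) at least 2-fold lower in Slpi-high barcodes. Of the 148 genes higher at 1 day, 144 were measured at 1 week and 133 of these (92.4%) were at least 2-fold higher there too, against 6.19% of all 6525 genes measured at both times. Of 380 genes lower at 1 day 317 (83.4%) were lower at 1 week, against 12.7%. No gene past 2-fold at 1 day was past 2-fold in the opposite direction at 1 week. Counted from the 1-week side, the shared genes were 32.9% of the 404 higher and 38.2% of the 830 lower genes of 1 week that were measured at both times. A shared choice by Slpi, and by Krt5 and Krt14 in the comparison group, enters both contrasts.

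Sprr2d was at 2783 CPM in 1-week Slpi-high barcodes, 238 CPM in Slpi-low keratinocytes and 0.980 CPM in 1-week control Slpi-low keratinocytes, a log2 ratio within the ablated library of 3.55. Krt6b was at 4020 CPM against 1081 CPM and 0.206 CPM. Slc5a8 was at 473 CPM against 43.5 CPM, Gjb2 at 647 CPM against 197 CPM and Tgm1 at 632 CPM against 122 CPM. Asprv1 was at 5408 CPM against 1319 CPM. Small proline-rich genes gave 9 higher and none lower of 11 (median 2.89), suprabasal genes 10 and none of 13 (1.70), basal genes none and 15 of 16 (-2.49), and cell cycle genes none and 20 of 20 (-2.17). The medians lay farther from 0 than at 1 day in each of these 4 lists.

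Other lists also differed between the times. Interleukin 1 family genes gave 8 higher of 13 at 1 week (median 1.36), against 1 of 11 at 1 day, with Il1rn at 445 CPM against 98.0 CPM and Il1f9 at 214 CPM against 38.3 CPM. Clade B serpins and other inhibitors gave 9 of 17 (1.11). Areg, past 2-fold at 1 day, was at 337 CPM against 173 CPM, a log2 ratio of 0.96. Timp1 was at 464 CPM against 7.02 CPM, but 8 barcodes held 99.9% of its UMIs and 1 barcode 584 of 820. Likewise 8 of the 151 barcodes held 73.3% of Krt6b UMIs and 99.4% of Sprr2i UMIs, so 1-week sums rest on few deep barcodes. The differences between times were not tested, and time and kit cannot be told apart. The Krt10 match left 44 Slpi-high barcodes at 1 week, below the planned minimum of 50 for a 1-week comparison. With it, 10 of 19 higher genes measured at both times (52.6%) were also higher at 1 week, against 2.27% of all.

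**Figure D5:**
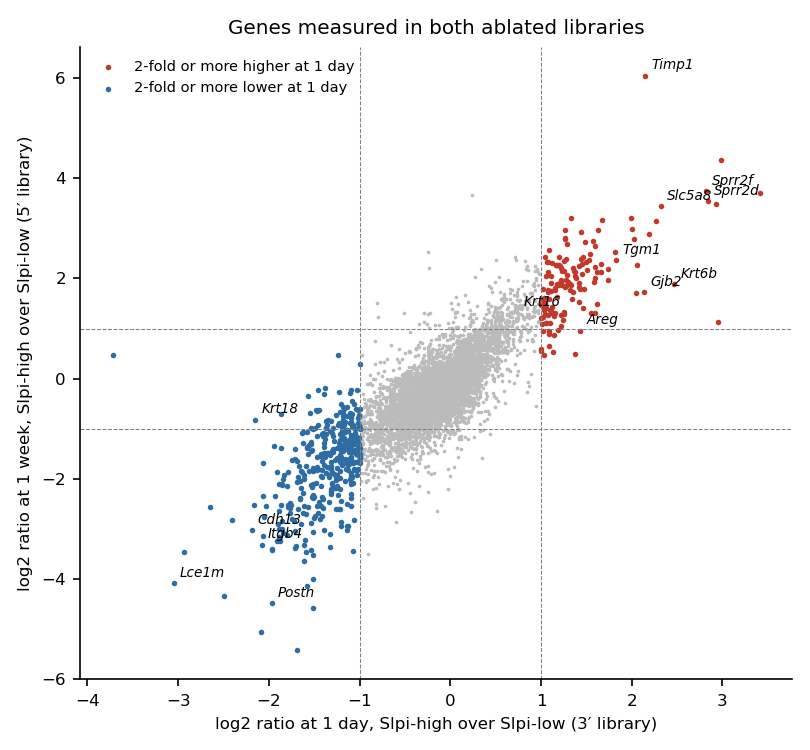
Log2 ratio of Slpi-high over Slpi-low barcodes at 1 day (horizontal axis) and at 1 week (vertical axis), 1 point per gene measured in both ablated libraries, with dashed lines at 2-fold. Of the red genes, higher at 1 day, 133 of 144 lie above the upper line, and Timp1 stands highest at 1 week.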

How the data were processed

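Single-cell RNA sequencing of 4 libraries was analysed from the deposited matrices, whose values are whole UMI counts per gene and barcode, per the file headers. The submitters' processing notes name mm10, Cell Ranger 5.0.1 and Seurat, with no role given. Counts were summed over the barcodes of a group and divided by the group's total UMIs. Poisson intervals were used for levels, conditional binomial intervals for ratios and Clopper-Pearson intervals for shares, all at 95% and for counting error only. Gene UMIs per library ran from 68191870 to 179736563. No test was run, since each group is 1 library.

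Genes were measured at a mean of 10 CPM over both groups, with the 7 genes of the rule and mitochondrial genes left out. Named genes were the given markers, the 15 highest and 10 lowest ratios at a mean of 20 CPM, and from each list its 4 most abundant genes and the farthest from 0 in each direction. Other genes (Alox12b, Atf3, Cstdc5, Cxcr2, Egfr, Epcam, Hrnr, Hs3st1, Il24, Irf1, Krt79, Lor, Mki67, Mmp3, Prdm1, Ptges, S100a9, Spink5, Stfa3, Trbc2, Trp63 and Wfdc18) were named after their values were seen. The members, lists and limits were chosen with earlier results of these data known. Doublets were kept, and barcodes with the highest Scrublet scores were left out only as an alternative. Analyses used Python 3.11.15, scipy 1.17.1, scanpy 1.11.5 and, for TMM factors alone, edgeR 4.0.16. The ratio step was tested on simulated sums with known log2 changes of 2.00, 1.58, -1.58 and -2.00. At 1 day, all 50 genes at each of these 4 changes passed 2-fold in the right direction. The changes all lie past 2-fold and the sums carry no spread between barcodes, so this checks the calculation only. Promoters came from RefSeq (GRCm38.p6).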

Additional observations from a re-analysis of the deposited data

Results flagged for a closer look

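Hashtag counts are outside the gene measurements compared above. With scaled counts, hashtag 1 took 56.2% of the Slpi-high barcodes given to a hashtag, above its 33.4% among Slpi-low keratinocytes and its 34.4% among passing barcodes of the 1-day control library. Scaling by the median within each library draws the shares among all passing barcodes towards even. With the counts as deposited, hashtag 1 took 24.6% of Slpi-high barcodes (20.8 to 28.6). In Slpi-low keratinocytes of the same library it took a lower share, 537 of 7674 (6.44% to 7.59%). Its share of passing control barcodes was 24.5%, so the Slpi-high share did not exceed the control beyond counting error. Hashtag counts differed between these libraries, with hashtag 3 at a median of 72 in the ablated library and 111 in the control. The comparison with the control was not corrected for this. Of all Slpi-high barcodes, 55.0% were given to no hashtag.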

How the results depend on the processing

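The share of barcodes that are Slpi-high, 4.12%, became 4.88% with the Slpi limit at 5 per 10000, 2.58% at 20, 5.73% with a minimum of 3000 UMIs and 5.02% without the Krt8 and Flg limits. The counts of 148 higher and 400 lower genes became 229 and 643 without the highest Scrublet scores, 246 and 225 with TMM scaling, and 93 and 75 at a mean of 50 CPM. Lower genes numbered 231 with the Krt5 and Krt14 minimum in both groups and 1538 at a mean of 1 CPM. With Krt10 at 50 or more per 10000 in both groups they were 27 and 80, and 23 and 60 with the Krt8 and Flg limits too. The share of higher genes also higher at 1 week, 92.4%, was 85.7% with at most 20000 UMIs, and 52.2% and 52.6% with the Krt10 minimum without and with those limits. Both Krt10 settings left 44 Slpi-high barcodes at 1 week, below the planned minimum of 50. The cause of these differences was not tested. The Krt10 minimum, the scaled hashtags and all alternatives of the 1-week share were chosen after seeing the data.

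Lce1m turned from -3.05 to 0.23 without the Krt8 and Flg limits. Within hashtag 1 as deposited, log2 ratios turned positive for Lce1m (0.065), Lce1a2 (0.64), Lce1a1 (0.94), Lce1b (0.24) and Cd34 (0.16), and Lce1b was 0.32 within scaled hashtag 3. The median of WAP-domain genes turned to -3.18 within scaled hashtag 3 and to -0.68 with the Krt10 minimum alone. Hashtag 3 as deposited held 27 Slpi-high barcodes and was not run. No paired analysis was possible because each group has 1 library. Depth limits genes seen in few barcodes, such as Wfdc12, S100a8 and Lcn2.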
